A study of Rattus norvegicus with 18 samples.

Results

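The 2 experiments of this series each had a control of its own, and the comparison described here sets these controls against each other: the 3 arrays of unstretched (static) myocytes and the 3 arrays of myocytes paced at 1 Hz for 3 h. They are 6 of the 18 arrays of the series, chosen by their labels alone, and 14557 genes were measured on every one of them. Cardiac myocytes of the ventricles of 1- to 3-day-old Wistar rats were kept in culture for 3 days in both cases, without serum and with BrdU against dividing non-myocytes. The static cells lay on collagen IV coated flexible membranes and served as control for 24 h of cyclic stretch. The 1 Hz cells lay in dishes coated with gelatin and received field stimulation with 4 ms pulses, as control for pacing at 8 Hz. The 4 other groups, of 3 arrays each, were stretch, 8 Hz, and both triggers with 10 µM KB-R7934. Pacing, duration and culture surface therefore differ together between the 2 controls, and their parts in any difference below cannot be told apart. Each array held RNA of 2 to 6 pooled technical replicates of 1 biological replicate, 4, 2 and 2 for static and 4, 3 and 6 for 1 Hz.

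Newborn ventricular myocytes are still shifting from the fetal towards the adult programme, in which mitochondria, fatty acid oxidation and the adult isoforms of contractile proteins gain weight. Such cultures also hold fibroblasts, endothelial cells and macrophages, which secrete matrix, proteases and chemokines, the small proteins that attract white blood cells. Myocytes, fibroblasts and macrophages can all switch on inflammatory genes through the transcription factor NF-kappaB. The study describes the culture as enriched in myocytes, not as pure, and an array of a whole culture cannot assign a signal to one of its cell types.

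Values are log2 signals, normalized by the authors, on which 1 unit is a doubling. The 6 arrays had medians of 5.27 to 5.31, and pairs of arrays of the same control correlated with r = 0.9828 to 0.9875, against 0.9769 to 0.9836 between the controls. On the first principal component of all 18 arrays (22.8% of the variance) the 9 arrays of the stretch experiment lay at -35.5 to -21.2 and the 9 of the pacing experiment at 9.86 to 49.3. Among the 1 Hz controls, replicate 2 lay at 33.1 and the other two at 9.86 and 10.5. The labelled cell type was borne out by its markers: troponin T (Tnnt2) had a mean of 12.77 in static and 12.84 at 1 Hz, and the 12 measured myocyte markers averaged 10.61 to 11.16 in the static arrays and 11.11 to 11.36 at 1 Hz.

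The 2 baselines differed in 501 of 14557 genes, 3.44% of those tested (limma over all 18 arrays, Benjamini-Hochberg adjusted p under 0.05). Of these, 222 (1.53%) were higher and 279 (1.92%) lower in static cells. The differences were lopsided in size. Among the lower genes 143 differed by more than 2-fold and 40 by more than 4-fold, and their median difference in log2 signal was -1.03. Among the higher genes 16 passed 2-fold and 1 passed 4-fold, with a median of 0.63, while the median over all genes was 0.01. In each of the 501 genes the 3 static arrays lay wholly above or wholly below the 3 arrays at 1 Hz. Over all genes the groups were likewise separated in 14.2% with static above and 10.6% with static below. The count of calls leaned on single arrays: it was 142 without static replicate 2, 158 without static replicate 3, 206 without 1 Hz replicate 1, 235 without 1 Hz replicate 2, 294 without 1 Hz replicate 3 and 665 without static replicate 1. In a fit of the 6 control arrays alone it was 42, of which 4 were higher and 38 lower. At the study's looser threshold (unadjusted p under 0.05 and at least 1.2-fold), 4979 of 36685 transcript clusters passed (13.6%), 2724 higher (7.43%) and 2255 lower (6.15%) in static.

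**Figure D1:**
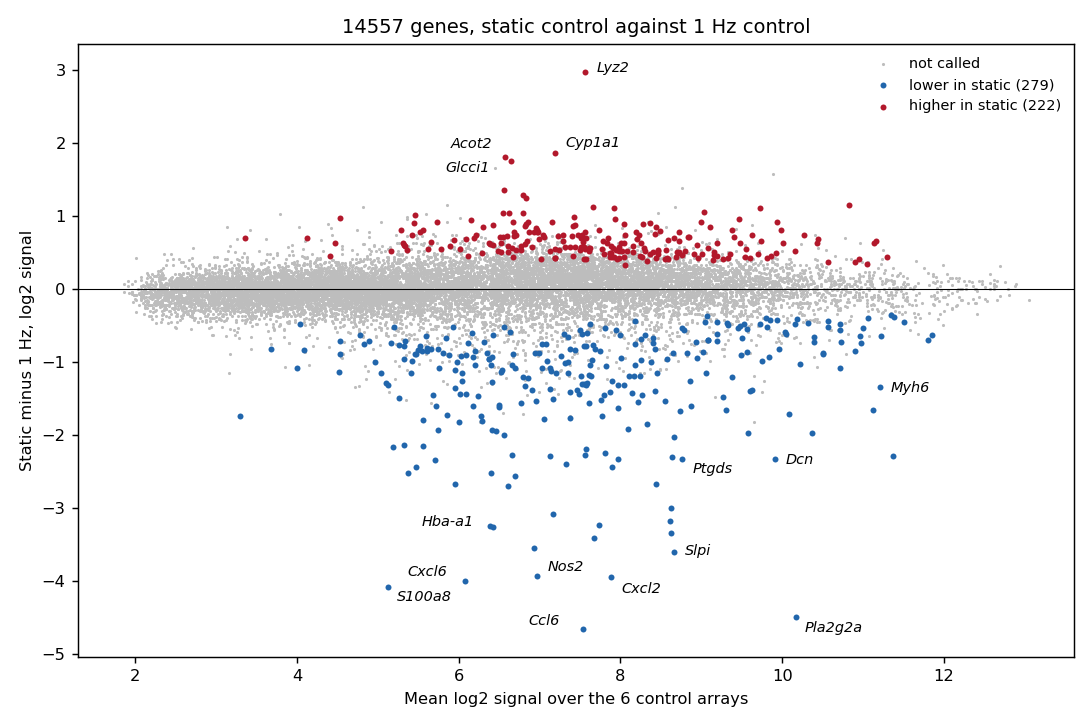
Each point is 1 of 14557 genes, placed by its mean log2 signal over the 6 control arrays (horizontal) and by the static minus 1 Hz difference in log2 signal (vertical). Blue points are the 279 genes called lower and red points the 222 called higher in static cells; the blue ones reach down to -4.65 (Ccl6), the red ones up to 2.98 (Lyz2).

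The genes with the brightest signal were largely common to both baselines. Of the 20 brightest genes of each control, 17 (85.0%) were shared, and of the 100 brightest 88 (88.0%). Signals of different genes also depend on their probes, so the ranks are no order of RNA amounts. Cox6a2, the heart and muscle isoform of a cytochrome c oxidase subunit, ranked 1st in both (12.98 and 13.13). It was followed by ribosomal proteins (Rps28, Rps29, Rpl23), by Tnnt2, by the small heat shock protein Cryab and by Sparc, a matrix-binding glycoprotein. Eef1a1, Rpl18 and Rps15a were among the 20 in static only, and Cox6a1, Nppa (atrial natriuretic peptide) and S100a6 at 1 Hz only. None of these 23 genes was called, and their differences ran from -0.33 to 0.32. Among the 112 genes that were in the brightest 100 of either control, 0 were called higher and 6 lower in static: Ccl2, Cox8b, Ifitm3, Lcn2, Myh6 and Pla2g2a. Over all genes 1.53% were called higher and 1.92% lower. All 6 were in the brightest 100 of the 1 Hz control only and entered by that signal, so the split is a description only. Pla2g2a, a secreted phospholipase A2 of the acute phase, read 8.46, 7.35 and 7.97 in the 3 static arrays and 12.60, 12.37 and 12.27 at 1 Hz. It thus stood with the most intense genes of the 1 Hz control but well below them in the static one, a difference of -4.49 (SE 0.35, 22.4-fold, adjusted p = 9.61e-06).

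Among called genes whose higher group mean exceeded the median of all clusters, 5 of the 12 largest differences towards lower signal were those of chemokines. Genes dim in static could pass this filter by their 1 Hz signal alone, so the count is a description only. Chemokine ligands made up 29 of the 14557 genes tested. Of 29 measured chemokine ligands, a family chosen after the values were seen, 27 had a lower mean in static and 11 were called lower (37.9%, against 1.92% of all genes), 0 higher, with a median of -0.99. In 17 of the 29 (against 10.6% of all genes) the static arrays lay wholly below. Ccl6, a CC chemokine of rodents, had the largest difference of all genes: its log2 signals were 5.00, 5.85 and 4.78 in static and 9.81, 9.92 and 9.86 at 1 Hz. The groups were far apart and the 1 Hz arrays nearly equal (difference -4.65, SE 0.30, 25.1-fold, adjusted p = 3.35e-06). Cxcl2, which attracts neutrophils, read 5.81, 5.65 and 6.27 in static and 9.48, 9.98 and 10.11 at 1 Hz (-3.94, SE 0.39, adjusted p = 0.000103). Cxcl6, of the same function, read 3.75, 4.5 and 3.98 against 9.42, 7.87 and 6.92. Here the 1 Hz arrays were spread widely (SD 1.26, n = 3) but still lay above every static array (-4.0, SE 0.61, adjusted p = 0.00332). Cxcl11, an interferon-induced ligand of the receptor CXCR3, differed by -3.26 (SE 0.25, adjusted p = 9.61e-06), the monocyte attractant Ccl7 by -3.34 (SE 0.37, adjusted p = 0.000281) and Ccl12 by -2.56 (SE 0.34, adjusted p = 0.00113). Ccl2, a further monocyte attractant, was bright in both baselines, with means of 10.30 and 11.95 (-1.65, SE 0.26, adjusted p = 0.00403). The 11 calls of the family became 8 without static replicate 2 or 1 Hz replicate 1 or 2, and 4 in the fit of 6 arrays. In that fit Cxcl6, Ccl2 and Ccl12 were not called.

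**Figure D2:**
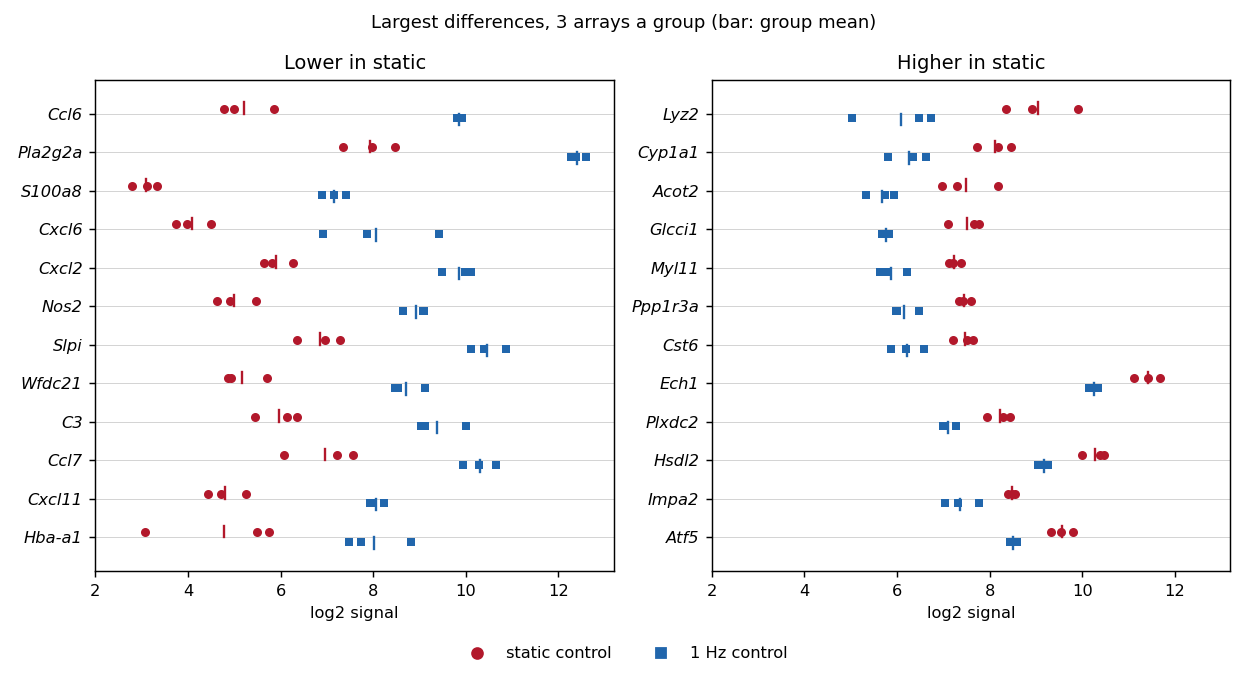
The log2 signal of each of the 6 control arrays for the 12 genes with the largest differences in each direction among those called whose higher group mean exceeded the median of all clusters (circles, static; squares, 1 Hz; bars, group means). The genes were chosen among those with non-overlapping groups, so the lack of overlap is no result. Ccl6 has a static mean of 5.21 and a 1 Hz mean of 9.86, Lyz2 9.05 and 6.08.

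The wider list of NF-kappaB targets and cytokines showed the same direction. Of its 34 measured genes, 29 had lower means in static, and the median was -0.84. Calls of lower signal numbered 14 (41.2%, against 1.92% of all genes), and 0 were higher. The mean over the list was 6.65, 6.44 and 6.79 in the static arrays and 8.04, 7.83 and 7.70 at 1 Hz, with no overlap. Nos2, the inducible nitric oxide synthase, which is not on this list, stood at 4.91, 4.63 and 5.47 against 9.07, 8.65 and 9.09 (-3.93, SE 0.36, adjusted p = 5.22e-05). The interleukins differed less. Il1a was lower in static by 4.48-fold (-2.16, SE 0.27, adjusted p = 0.000596) and the neutrophil growth factor Csf3 by 5.39-fold (-2.43, SE 0.42, adjusted p = 0.00777). Il6 read 5.70, 4.98 and 5.08 in static and 7.77, 8.93 and 7.15 at 1 Hz, where replicate 2 was the highest (-2.69, SE 0.52, adjusted p = 0.0142). Tnf, the classical inducer of this pathway, had means of 5.70 and 5.96 with overlapping groups (-0.26, SE 0.35, adjusted p = 0.826). The call of Il6 ended without static replicate 2 or 3 or 1 Hz replicate 2, with adjusted p up to 0.0741, and those of Il1b, Ccl3, Ptgs2, Vcam1 and Sod2 each ended without at least 2 of the 6 arrays. The 14 calls became 9 without static replicate 2 or 1 Hz replicate 2 and 5 in the fit of 6 arrays. Of the 16 macrophage and leukocyte markers beside these genes, 3 lay wholly below and 3 wholly above in static and 10 overlapped. Over all genes the static arrays lay wholly below in 10.6% and wholly above in 14.2%. The mean level of the 16 markers was 6.58, 6.19 and 7.11 in static and 6.6, 7.04 and 7.17 at 1 Hz, and the part of such cells in the result was not tested.

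Promoters are shown for 4 of these cytokine genes and for Pla2g2a, because they hold a match to the kappaB motif, the form of DNA sequence that NF-kappaB binds, searched on both strands. Each is the window from 250 bases before to 50 bases after the start of the gene in RefSeq (build GRCr8), 5′ to 3′ on the strand of the gene, with the matched letters in capitals.
Cxcl1 (chr14:17479272-17479571, minus strand): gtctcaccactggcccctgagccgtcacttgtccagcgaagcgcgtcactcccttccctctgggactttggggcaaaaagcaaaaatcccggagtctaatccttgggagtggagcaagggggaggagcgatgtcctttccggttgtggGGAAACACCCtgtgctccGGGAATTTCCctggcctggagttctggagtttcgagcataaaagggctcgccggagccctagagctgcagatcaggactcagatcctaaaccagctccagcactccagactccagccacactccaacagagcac
Cxcl2 (chr14:17467206-17467505, minus strand): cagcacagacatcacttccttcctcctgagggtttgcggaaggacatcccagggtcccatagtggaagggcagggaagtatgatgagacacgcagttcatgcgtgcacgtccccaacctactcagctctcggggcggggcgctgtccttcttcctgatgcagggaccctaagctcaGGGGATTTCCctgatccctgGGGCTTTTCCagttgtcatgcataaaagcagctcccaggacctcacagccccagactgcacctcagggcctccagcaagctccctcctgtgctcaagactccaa
Cxcl6 (chr14:17596368-17596667, minus strand): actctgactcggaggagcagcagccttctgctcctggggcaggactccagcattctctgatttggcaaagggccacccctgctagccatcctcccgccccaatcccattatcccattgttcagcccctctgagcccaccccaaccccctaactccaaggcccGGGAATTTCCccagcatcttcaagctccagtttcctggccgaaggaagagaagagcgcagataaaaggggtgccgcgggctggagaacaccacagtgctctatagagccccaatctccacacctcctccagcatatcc
Il6 (chr4:5894526-5894825, minus strand): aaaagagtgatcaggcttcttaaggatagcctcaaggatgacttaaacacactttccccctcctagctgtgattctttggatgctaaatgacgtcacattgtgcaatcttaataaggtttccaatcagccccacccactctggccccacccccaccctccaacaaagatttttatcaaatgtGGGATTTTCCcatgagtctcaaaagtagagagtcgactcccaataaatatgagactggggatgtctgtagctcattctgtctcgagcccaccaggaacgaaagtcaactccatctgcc
Pla2g2a (chr5:156359475-156359774, plus strand): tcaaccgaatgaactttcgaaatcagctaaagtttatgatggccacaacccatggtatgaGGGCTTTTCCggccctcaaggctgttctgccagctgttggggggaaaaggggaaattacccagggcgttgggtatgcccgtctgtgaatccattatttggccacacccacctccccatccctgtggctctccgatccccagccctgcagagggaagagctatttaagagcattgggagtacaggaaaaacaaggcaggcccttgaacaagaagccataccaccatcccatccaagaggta
Cxcl1 and Cxcl2 each hold 2 matches, which do not overlap each other, and the other three hold 1. Of the 34 listed genes, 25 had a promoter in the table, 9 of them with a match (36%), among them 4 of the 11 called genes with a promoter (Il6, Cxcl1, Cxcl2 and Cxcl6). The motif occurs in 1.51% of all 27457 promoters, in 1.63% of the 11787 promoters of genes on the array, in 11 of 208 promoters of genes called lower (5.29%) and in 3 of 190 of those called higher (1.58%). Many of the listed genes are known for this motif, and a match is a description of the letters, not of a bound site.

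Among the genes with the largest differences or named after their values were seen were several of host defence, all of those given here being called lower in static cells. They are no fixed group and have no count. S100a8, a calcium-binding protein known from neutrophils and monocytes, read 3.34, 3.12 and 2.80 in static and 6.90, 7.41 and 7.16 at 1 Hz (-4.07, SE 0.30, adjusted p = 6.76e-06). The static values lay in the dim range of the arrays, below the median of 5.27 to 5.31, and the 1 Hz values well above it. The protease inhibitor Slpi read 7.29, 6.35 and 6.95 against 10.86, 10.40 and 10.11 (-3.59, SE 0.40, adjusted p = 0.000263). The related gene Wfdc21 differed by -3.54 (SE 0.28, adjusted p = 9.61e-06) and the central complement protein C3 by -3.40 (SE 0.51, adjusted p = 0.00302). Lower by 3.01- to 4.91-fold were the complement protease C1r (-1.96), the siderophore-binding Lcn2 (-2.28), the lipopolysaccharide-binding Lbp (-2.30), the haemoglobin-binding Hp (-1.59), the chitinase-like Chi3l1 (-2.27) and the myeloid receptor Trem1 (-2.27), all with adjusted p of 0.0074 or less. Ereg, a ligand of the EGF receptor, had means of 6.12 and 9.36 (-3.23, SE 0.40, adjusted p = 0.0007). It was the 1 called member of 12 measured EGF family genes (8.33%, against 1.92% of all genes called lower). All the genes of this paragraph kept their call when any 1 of the 6 arrays was left out.

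On the fibroblast and matrix lists a minority of genes was called, each lower in static cells, but a larger share than over all genes. Of 16 measured fibroblast markers, 12 had a lower mean and 4 were called lower (25%, against 1.92% of all genes), none higher, with a median of -0.52. The 4 calls became 3 without static replicate 2 or 3, 6 without static replicate 1 and 1 in the fit of 6 arrays. As these are bulk samples, fewer cells of a type and less RNA per cell cannot be told apart. The mean of the 16 markers was 8.86 in static replicate 1, 8.09 and 8.17 in replicates 2 and 3, and 9.14, 9.20 and 9.10 at 1 Hz, so static replicate 1 lay nearest to the paced cells. Decorin (Dcn), a proteoglycan of the matrix, read 9.25, 8.22 and 8.78 in static and 11.19, 11.21 and 10.82 at 1 Hz (-2.32, SE 0.24, adjusted p = 0.000118). The related lumican (Lum) differed by -2.67 (SE 0.26, adjusted p = 0.000103) and dermatopontin (Dpt) by -1.85 (SE 0.21, adjusted p = 0.000345). The main fibrillar collagens were not called: Col1a1 had means of 10.17 and 10.15 (0.02, SE 0.21, adjusted p = 0.979) and Col3a1 9.74 and 10.37 (-0.64, SE 0.24, adjusted p = 0.204). Pdgfra, a receptor that marks fibroblasts, stood at -0.48 (SE 0.27, adjusted p = 0.451) with overlapping groups.

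Of 34 measured genes of collagens and fibrous matrix, 6 were called lower (17.6%, against 1.92% of all genes) and 0 higher (median -0.22). Besides Dcn they were Thbs2, Fmod, Col15a1, Lama2 and Lamb1, of which Thbs2, a matricellular glycoprotein, had the smallest p (-1.42, SE 0.17, adjusted p = 0.000418). The 6 calls became 2 without static replicate 2 or 3, 3 without 1 Hz replicate 1, 10 without static replicate 1 and 1 in the fit of 6 arrays. Among 26 proteases and inhibitors of the matrix 5 were called lower (19.2%) and 0 higher (median -0.30). Mmp9, a gelatinase, read 5.39, 5.27 and 6.21 in static and 8.47, 8.78 and 8.86 at 1 Hz, 8.46-fold apart (-3.08, SE 0.32, adjusted p = 0.000161). Mmp13, a collagenase, differed by -2.52 (SE 0.31, adjusted p = 0.000596), and both were also called in the fit of 6 arrays. The 5 calls became 3 without 1 Hz replicate 3 and 2 without static replicate 2 or 3 or 1 Hz replicate 1 or 2. Several other genes of secreted or cell-surface proteins were named for their small p-values. Ptgds, which makes prostaglandin D2, read 7.71, 7.41 and 7.69 against 10.15, 9.86 and 9.76, with little spread in either control (-2.32, SE 0.15, adjusted p = 3.35e-06). Igfbp3, a binding protein of insulin-like growth factors, differed by -3.17 (SE 0.28, adjusted p = 2.88e-05), the Wnt modulator Sfrp2 by -2.43 (SE 0.23, adjusted p = 6.92e-05) and the lubricant Prg4 by -2.18 (SE 0.20, adjusted p = 4.52e-05). The adhesion receptor Adgrd1 stood at -2.39 (SE 0.18, adjusted p = 6.76e-06).

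Markers of other cells gave a mixed picture. Of 16 macrophage and leukocyte markers 9 had lower and 7 higher means (median -0.63). Calls were 2 lower (12.5%, against 1.92% of all genes) and 1 higher (6.25%, against 1.53%). Cd14, a receptor for lipopolysaccharide, was lower in static (-1.62, SE 0.28, adjusted p = 0.00789), as was the integrin Itgam (-1.14, SE 0.22, adjusted p = 0.0159). Lyz2, the lysozyme of macrophages, went the other way and had the largest positive difference of all called genes: 8.91, 8.35 and 9.90 in static and 5.02, 6.47 and 6.74 at 1 Hz (2.98, SE 0.67, adjusted p = 0.0327). The general macrophage markers Cd68 (-0.60, SE 0.48, adjusted p = 0.642) and Adgre1 (-0.65, SE 0.44, adjusted p = 0.566) had overlapping groups. The call of Cd14 ended without static replicate 2 (adjusted p = 0.0501). That of Itgam ended without each of 3 arrays and that of Lyz2 without each of 5, with adjusted p up to 0.0893 and 0.161. Msr1, a scavenger receptor of macrophages outside the list, was lower in static by 5.75-fold (-2.52, SE 0.32, adjusted p = 0.0007).

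Of 13 endothelial markers 1 was called lower, Cdh5, the cadherin of endothelial junctions (-1.26, SE 0.21, adjusted p = 0.00662), and the list averaged 4.82 to 5.03 in static and 5.11 to 5.18 at 1 Hz. Of 5 erythroid markers the alpha globin Hba-a1 was called lower, with 3.08, 5.48 and 5.76 in static against 8.81, 7.74 and 7.48 (-3.24, SE 0.70, adjusted p = 0.0273). Near-identical globin copies cannot be told apart here, and the call ended without static replicate 1 or 2 or 1 Hz replicate 1 or 2 (adjusted p up to 0.115). The list averaged 4.61 to 5.06 in static and 5.71 to 6.20 at 1 Hz. Of 9 smooth muscle and pericyte markers Abcc9, a subunit of ATP-sensitive potassium channels, was lower (-1.31, SE 0.23, adjusted p = 0.00789). The list averaged 7.81 to 8.36 in static and 8.30 to 8.47 at 1 Hz, and it overlapped. Of 7 epicardial markers Aldh1a2, which makes retinoic acid, was lower (-1.31, SE 0.26, adjusted p = 0.0163) and Upk1b higher (0.74, SE 0.17, adjusted p = 0.0323), and 0 of 7 glial and neuronal markers were called. The list means overlapped for the epicardial markers, 6.36 to 6.84 in static and 6.77 to 6.91 at 1 Hz, and lay close together for the glial and neuronal ones, 4.85 to 4.93 and 4.95 to 5.05. The calls of Abcc9, Aldh1a2 and Upk1b each ended without at least 1 array. By share, 7.69% of endothelial, 20% of erythroid, 11.1% of smooth muscle and 14.3% of epicardial markers were called lower, against 1.92% of all genes. Higher were 14.3% of the epicardial ones, against 1.53%. Each of these shares rests on 1 gene.

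Of the 12 measured myocyte markers, 2 were called lower in static (16.7%, against 1.92% of all genes) and 0 higher. On the list of 36 sarcomere and Z-disc genes 1 was called lower (2.78%) and 0 higher. Myh6, the fast myosin heavy chain that takes over in the rodent ventricle after birth, read 10.62, 10.38 and 10.63 in static and 11.94, 11.84 and 11.83 at 1 Hz. The spread within each control was small beside the gap (-1.33, SE 0.18, 2.51-fold, adjusted p = 0.00123). All 12 measured myocyte markers had a lower mean in static, by a median of 0.17, but only Myh6 and the muscle creatine kinase Ckm (-0.87, SE 0.13, adjusted p = 0.00283) were called. Of 17 genes on a list of thyroid-dependent and fetal-to-adult isoforms 16 had lower means and 5 were called lower (29.4%). These were Myh6, Ckm, the calcium pump Atp2a2 (-0.64, SE 0.13, adjusted p = 0.016), the insulin-dependent glucose carrier Slc2a4 (-0.80, SE 0.18, adjusted p = 0.0291) and the muscle cytochrome oxidase subunit Cox8b (-0.69, SE 0.10, adjusted p = 0.00288). Hcn4, the pacemaker channel of the fetal ventricle and sinus node, was the 1 called higher, at 7.53, 7.45 and 7.14 against 6.88, 6.04 and 6.77 (0.81, SE 0.19, adjusted p = 0.0409). Kcnj2, the inward rectifier that holds the resting potential, was higher too (0.72, SE 0.18, adjusted p = 0.0484). Myl11, the regulatory light chain of fast skeletal muscle, read 7.21, 7.13 and 7.38 against 5.64, 5.79 and 6.22 (1.36, SE 0.18, adjusted p = 0.00142). The calls of Hcn4 and Kcnj2 each ended without at least 5 of the 6 arrays, those of Atp2a2 and Slc2a4 without at least 3.

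None of the measured hypertrophy markers of the study, nor desmin, its marker of myocytes, was called between the controls, and none had an unadjusted p under 0.05 in limma. Acta1, the skeletal actin re-expressed in hypertrophy, had means of 10.51 and 11.11 (-0.61, SE 0.32, adjusted p = 0.41), and its static arrays lay wholly below. The natriuretic peptides Nppa (-0.13, SE 0.21, adjusted p = 0.855) and Nppb (-0.27, SE 0.18, adjusted p = 0.568) and desmin (Des, -0.34, SE 0.30, adjusted p = 0.681) had overlapping groups. Static replicate 3 was the lowest of the 6 arrays in all 4 genes. Rcan1, which the study used as marker of fast pacing, and Fhl1 had no transcript cluster with a single symbol and were not analysed here.

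On 2 metabolic lists the calls ran mainly in opposite directions, lower in static for the respiratory chain and higher for fatty acid oxidation. Of 35 measured genes on the respiratory chain list, which includes a few of the citric acid cycle and Tfam, 33 had lower means. In 29 (against 10.6% of all genes) the static arrays lay wholly below, and 11 (31.4%, against 1.92%) were called lower and 0 higher, with a median of -0.35 and a lowest difference of -0.72. Cyc1, the cytochrome c1 of the third complex, read 10.10, 9.97 and 10.02 in static and 10.89, 10.67 and 10.69 at 1 Hz (-0.72, SE 0.10, 1.65-fold, adjusted p = 0.00191). Its partner Uqcrfs1, the Rieske protein, stood at -0.53 (SE 0.10, adjusted p = 0.0111) and Cox5b of cytochrome oxidase at -0.44 (SE 0.09, adjusted p = 0.0156). By complex, families read off the gene symbols after the values were seen gave 8 of 27 genes of the first complex called lower (29.6%). All 27 had lower means. The families further gave 3 of 8 of the third complex (37.5%) and 3 of 17 of cytochrome oxidase (17.6%), against 1.92% of all genes. Ndufs8 of the first complex read 9.82, 9.69 and 9.71 against 10.47, 10.21 and 10.37 (-0.61, SE 0.11, adjusted p = 0.00833). The 8 calls of the first complex became 1 without 1 Hz replicate 1 or 3 or static replicate 2 or 3, 4 without 1 Hz replicate 2, and 0 in the fit of 6 arrays. Those of the third complex became 1 without 1 Hz replicate 1 or static replicate 2 or 3, 2 without static replicate 1 or 1 Hz replicate 3, and 0 in the fit of 6 arrays. Those of cytochrome oxidase became 1 in that fit, and 2 without 1 Hz replicate 1 or static replicate 2 or 3. The 11 calls of the whole list became 2 without static replicate 2, static replicate 3 or 1 Hz replicate 1, 4 without 1 Hz replicate 3, and 0 in the fit of 6 arrays, whereas the median stayed between -0.39 and -0.31 under every alternative tried.

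On the list of fatty acid oxidation and PPAR targets, 25 of 38 genes had higher means in static (median 0.31), 5 were called higher and 1 lower. Acot2, which releases fatty acids from coenzyme A in mitochondria, read 6.97, 8.17 and 7.29 in static and 5.32, 5.93 and 5.75 at 1 Hz (1.81, SE 0.27, 3.51-fold, adjusted p = 0.00302). Static replicate 2 was the highest, and the call held without it. Both subunits of the trifunctional protein of beta oxidation were higher, Hadha by 0.64 (SE 0.12, adjusted p = 0.0156) and Hadhb by 0.75 (SE 0.15, adjusted p = 0.017). So were Decr1, which handles unsaturated fatty acids (0.92, SE 0.19, adjusted p = 0.0182), and the acyl-CoA synthetase Acsl1 (0.72, SE 0.17, adjusted p = 0.0414). Lpl, the lipase that frees fatty acids from lipoproteins, was the 1 called lower (-0.49, SE 0.12, adjusted p = 0.0455). Outside the list, Ech1, an isomerase of beta oxidation, read 11.12, 11.43 and 11.68 against 10.27, 10.15 and 10.35 (1.15, SE 0.24, adjusted p = 0.0201). Pdk4, a PPAR target that restrains pyruvate use, and Fabp4, a fatty acid carrier, had large differences of opposite sign that were not called (1.58, SE 0.44, and -1.23, SE 0.69). The 5 higher calls became 1 without static replicate 2 or 3, 2 without 1 Hz replicate 1 or 2, 3 without 1 Hz replicate 3, 8 without static replicate 1 and 0 in the fit of 6 arrays. Of 26 glycolytic and hypoxia-responsive genes 3 were called lower (11.5%, against 1.92% of all genes) and 0 higher. These were the vasodilator peptide Adm (-1.66, SE 0.27, adjusted p = 0.00596), the muscle mutase Pgam2 (-0.96, SE 0.16, adjusted p = 0.00654) and Slc2a4.

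**Figure D3:**
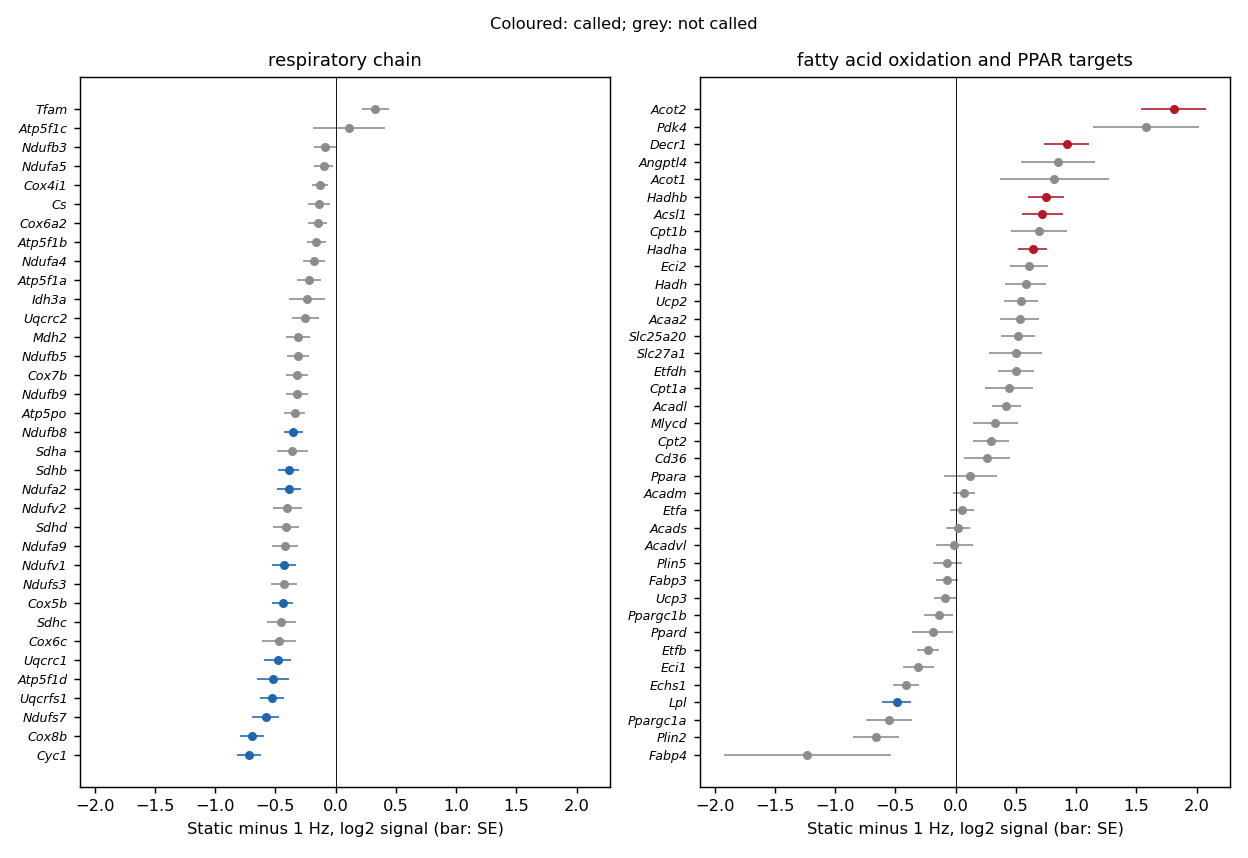
Static minus 1 Hz differences in log2 signal (points) with their SE (bars) for every measured gene of the respiratory chain list (35, left) and of the fatty acid oxidation and PPAR target list (38, right). Blue marks genes called lower and red genes called higher in static; 33 of the 35 respiratory chain genes lie below 0 (median -0.35, from -0.72 to 0.33), the fatty acid genes on both sides of it (median 0.31).

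The genes higher in static with the smallest p-values came from many processes. Vps13a, which moves lipids between membranes, read 7.88, 8.02 and 8.00 in static and 7.12, 7.30 and 7.10 at 1 Hz (0.79, SE 0.09, adjusted p = 0.000263). Ing1, a reader of active chromatin, differed by 0.89 (SE 0.10, adjusted p = 0.000281), the ubiquitin ligase Trim37 by 0.89 (SE 0.11, adjusted p = 0.000777), the netrin receptor Unc5b by 0.92 (SE 0.13, adjusted p = 0.00187) and Eda2r, a receptor induced by p53, by 0.85 (SE 0.12, adjusted p = 0.00149). Each of these is a difference under 2-fold with tight groups. Cyp1a1, the cytochrome P450 that metabolises aromatic hydrocarbons, was larger: 8.46, 8.19 and 7.73 against 5.80, 6.62 and 6.35 (1.87, SE 0.29, 3.65-fold, adjusted p = 0.00449). Ahr, the receptor that switches Cyp1a1 on, was lower in static at 7.55, 7.17 and 7.17 against 8.23, 8.73 and 8.10 (-1.05, SE 0.25, adjusted p = 0.041), a call that ended without any of 5 arrays. Ppp1r3a, which directs a phosphatase to muscle glycogen, differed by 1.3 (SE 0.21, adjusted p = 0.00453), and Glcci1, a glucocorticoid-induced transcript, by 1.76 (SE 0.41, adjusted p = 0.0371), also a call that ended without any of 5 arrays.

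Some of these belonged to the response to amino acid shortage and unfolded proteins. Atf5, a transcription factor of that response, read 9.32, 9.81 and 9.55 in static and 8.43, 8.59 and 8.49 at 1 Hz (1.06, SE 0.15, adjusted p = 0.00154), and Gtpbp2, which acts on stalled ribosomes, 6.90, 7.21 and 7.09 against 6.02, 5.95 and 6.11 (1.04, SE 0.12, adjusted p = 0.000345). Neither is on the list of the integrated stress response, of whose 32 measured genes 23 had higher means (median 0.21). On it 3 genes were called higher (9.38%, against 1.53% of all genes) and 0 lower. These were the glycine carrier Slc6a9 (0.78, SE 0.16, adjusted p = 0.0186), the amino acid transporter subunit Slc3a2 (0.81, SE 0.18, adjusted p = 0.0293) and the lipoprotein receptor Vldlr (0.54, SE 0.12, adjusted p = 0.0356), of which none was called in the fit of 6 arrays. The 3 calls became 0 without static replicate 2 or 3 or 1 Hz replicate 1 or 3, and 2 without 1 Hz replicate 2 or static replicate 1. Its well-known members Atf3 (-1.18, SE 0.39, adjusted p = 0.143) and Ddit3 (0.70, SE 0.41, adjusted p = 0.484) had overlapping groups and opposite signs. The element core TGATGNAA stood in the promoters of 9 of the 28 listed genes with one (32.1%, against 3.82% of all promoters), but of 0 of the 3 called. Of 22 Bardet-Biedl and intraflagellar transport genes, which serve the primary cilium and were grouped after the values were seen, 20 had higher means (median 0.29). In this group 4 were called higher (18.2%, against 1.53% of all genes) and 0 lower. Ift46 had the smallest p (0.79, SE 0.12, adjusted p = 0.00449), and Wdr19, Bbs9 and Ift20 lost their calls without at least 5 of the 6 arrays. The 4 calls became 1 without any array other than static replicate 1, and 0 in the fit of 6 arrays.

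**Figure D4:**
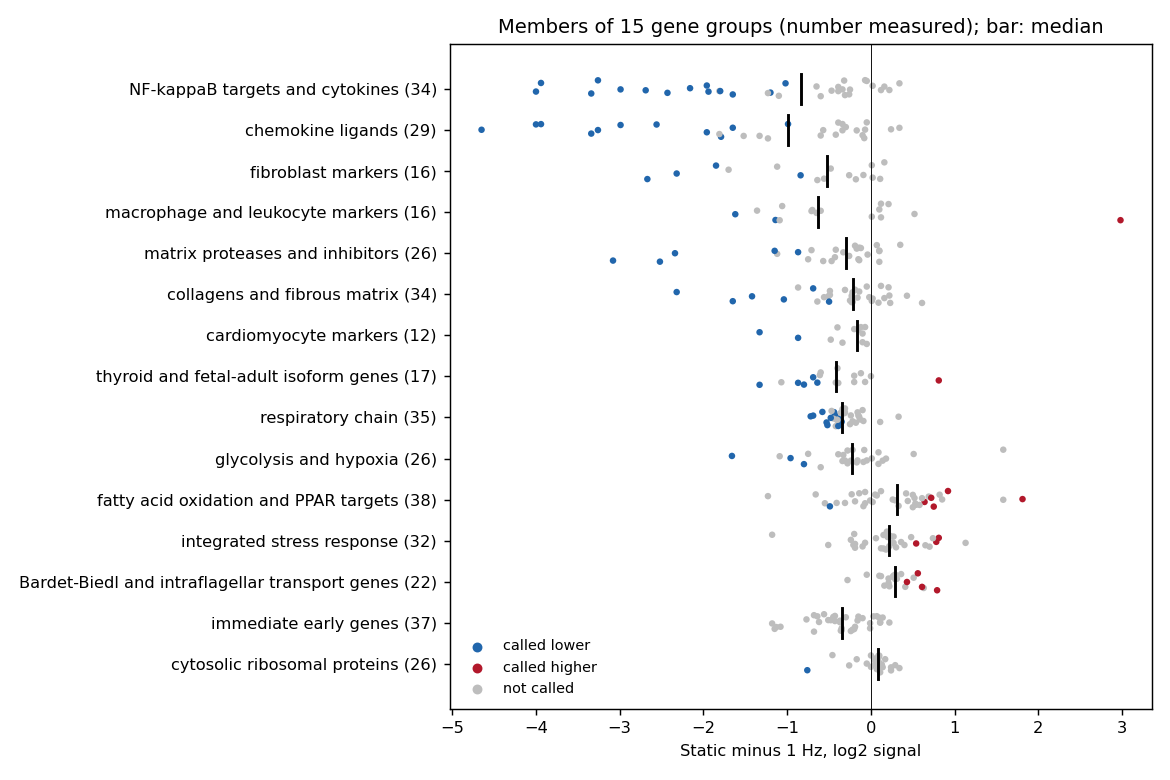
Each point is a gene, placed by its static minus 1 Hz difference in log2 signal, for 15 gene groups with the number measured in brackets; the bar is the median of the group. Blue and red points are genes called lower and higher in static. The chemokine ligands (median -0.99) and NF-kappaB targets (median -0.84) reach furthest left, and the ribosomal proteins lie near 0 (median 0.09).

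Other groups showed few or no calls. None of the 26 mitosis genes, 27 replication genes, 11 clock genes, 24 heat shock genes, 24 NRF2 and glutathione genes, 16 cholesterol synthesis genes or 37 immediate early genes was called in either direction by limma. At an unadjusted p under 0.05, these lists had 0, 2, 2, 6, 6, 4 and 10 genes in that order, against 2757 of all 14557 genes. The immediate early genes, which answer to activity within minutes, had 30 of 37 lower means in static and a median of -0.35. In 14 of them (against 10.6% of all genes) the static arrays lay wholly below. With the replicate number as a block 4 of them were called lower, and 1 without 1 Hz replicate 3 or static replicate 1. Without static replicate 1, 4 cholesterol synthesis genes were called lower and 1 clock gene higher, and with the block 1 NRF2 and glutathione gene was called higher. Of 26 cytosolic ribosomal proteins 21 had slightly higher means, with a median of 0.09, and only Rpl5 was called (-0.76, SE 0.15, adjusted p = 0.0156), although its signal of 4.88 and 5.64 was far from that of the bright members.

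The other arms set the same 2 experiments against each other with the triggers applied, on arrays that the controls do not share: stretch against 8 Hz, and both with KB-R7934. Replicates of equal number within an experiment may stem from the same isolation. Of the 279 genes lower in static, 277 (99.3%) were also lower in stretch than at 8 Hz and 168 (60.2%) were called there; with KB-R7934 these were 264 (94.6%) and 146 (52.3%). Of the 222 genes higher in static, 208 (93.7%) had the same sign and 89 (40.1%) were called in stretch against 8 Hz, and 196 (88.3%) and 97 (43.7%) with KB-R7934. Over all genes the sign was the same in 66.2% and 63.5%, and 5.41% and 8.33% of all genes were called in these arms (lower 2.59% and 3.77%, higher 2.82% and 4.55%). In all, 177 genes were called the same way in all 3 arms, 118 lower and 59 higher. For Ccl6 the differences were -4.65, -4.64 and -3.67 in the 3 arms, for Nos2 -3.93, -3.77 and -3.26, and for Myh6 -1.33, -1.42 and -1.35, all called. The chemokine ligands had 11, 11 and 10 genes called lower, and the NF-kappaB list 14, 17 and 22.

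For other lists the medians and counts of each arm stand side by side, and no difference between arms was tested for a list. The respiratory chain had medians of -0.35, -0.22 and -0.02, with 11, 3 and 0 genes called lower. Fatty acid oxidation had medians of 0.31, 0.03 and 0.18, with 5, 0 and 6 genes called higher and 1, 1 and 2 lower. Its member Acot2 stood at 1.81 between the controls and at 0.14 and 0.19 in the other arms, where it was not called. For the integrated stress response, the median difference was 0.21 between the controls but -0.6 and -0.68 in the other arms, with 15 and 14 genes called lower there, and the immediate early list had 0 genes called between the controls and 17 and 23 in the other arms. Whether a gene differed between arms was tested as the difference of the differences. Against stretch minus 8 Hz, 0 clusters passed (smallest adjusted p = 0.308 by limma, with 2210 clusters or 6.02% at an unadjusted p under 0.05). Against the arms with KB-R7934, 21 clusters passed (0.0572% of all), 16 of them genes with 1 symbol (0.11% of genes tested), among them Ptgds, Atf5 and Gtpbp2. Acot2 did not pass (adjusted p = 0.17 by limma). Same-numbered arrays of one experiment did deviate together in part (r = 0.124 to 0.295 for static and stretch, 0.0454 to 0.247 for 1 Hz and 8 Hz). With experiment and replicate number together as a block, an alternative chosen after seeing the data, the first test still passed 0 clusters (smallest adjusted p = 0.122 with a random and 0.0592 with a fixed block). The second then passed 90 (random) and 158 clusters (fixed), of which 58 and 105 were genes with 1 symbol.

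**Figure D5:**
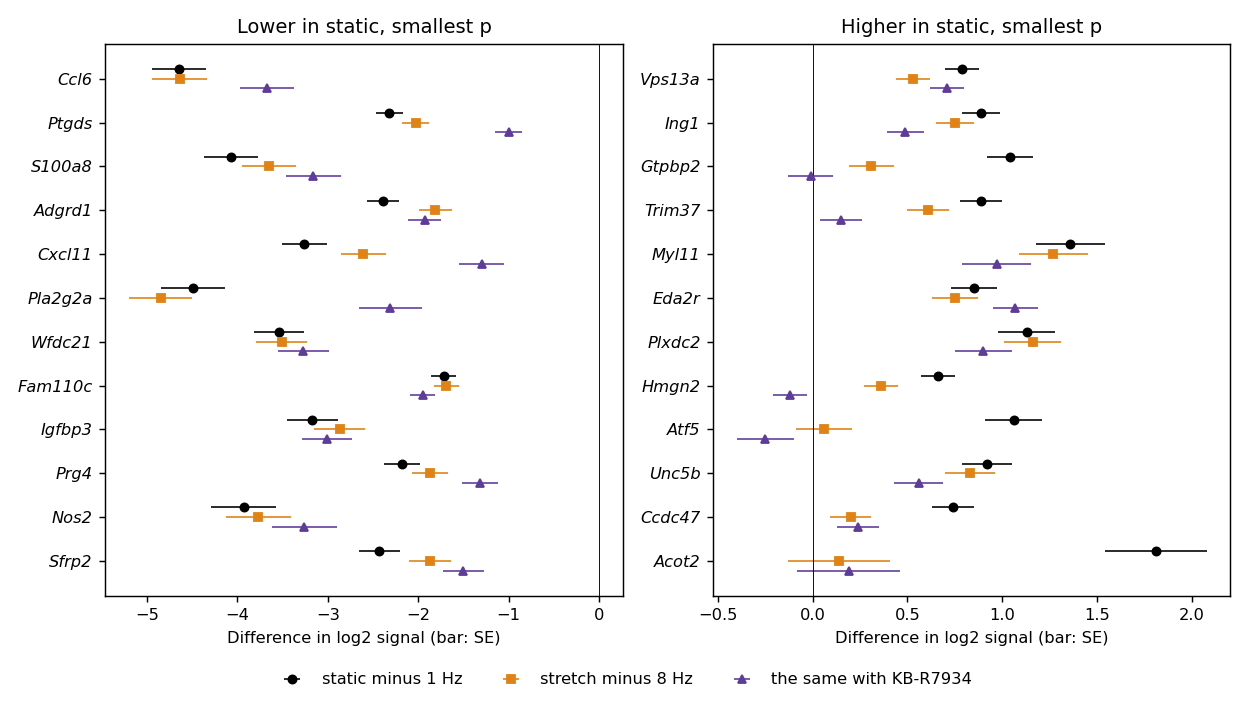
Differences in log2 signal (SE as bars) between the stretch and the pacing experiment for the 24 genes with the smallest p between the controls: static minus 1 Hz (black), stretch minus 8 Hz (orange) and stretch minus 8 Hz with KB-R7934 in both (purple). The 12 lower genes are negative in all 3 arms; among the higher ones, Acot2 stands at 1.81, 0.14 and 0.19 and Atf5 at 1.06, 0.06 and -0.25.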

How the data were processed

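RNA of 18 pooled samples was measured by the authors on Rat Gene 2.0 ST arrays after whole-transcriptome amplification and pre-processed in Partek Genomics Suite 6.6. The deposited table holds log2 signals of 36685 transcript clusters, and the methods for background and normalisation are not given in the sources used here. The fit reported here held all clusters without a filter on signal, and the number of arrays limits the precision. Replicates are biological replicates per the labels, each pooled from 2 to 6 technical replicates. The p-values measure the spread between replicates within all 6 groups, not within the 2 controls alone. The main fit took all 18 arrays as independent, although same-numbered arrays of one experiment deviated together in part.

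A gene was a cluster with exactly 1 symbol in the platform annotation (14824 clusters, 40.4%; 829 had several symbols and 21032 none), and of 234 genes with more than 1 cluster the brightest was kept. Clusters without a symbol were part of the fit only. The members of the comparison, the gene lists and the tests were chosen with earlier results of these data known. Of 1151 list entries, 815 were measured.

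The log2 values of all 18 arrays were fitted with limma 3.58.1 (R 4.3.3), a mean for each of 6 groups and moderated variances, and the contrast was static minus 1 Hz. P-values were two-sided and adjusted by Benjamini-Hochberg over all clusters, and a gene was called at an adjusted p under 0.05. For the arrays the study names a two-way ANOVA, whose factors are not given, followed by a Benjamini-Hochberg correction. The script was tested on simulated data. Named genes were the 12 with the smallest p and the 12 with the largest difference in each direction, up to 5 per list with the member of largest opposite difference, the 20 brightest of each control, and the study's and cell type markers. Those by p and by difference were taken among called genes with non-overlapping groups. For the largest differences the higher group mean also had to exceed the median of all clusters. C1r, Lbp, Hp, Chi3l1, Trem1, Msr1, Lcn2, Ahr, Ndufs8, Pdk4, Lamb1, Ifitm3, Ccl12, the cilium genes and a few other members of described lists were named after their values were seen. Alternatives covered samples, blocking, normalisation, filters and single arrays.

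Promoter windows of 300 bases came from RefSeq (GRCr8), and matches to each motif were counted on both strands. The files name no genome build, so no other coordinates are given.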

Additional observations from a re-analysis of the deposited data

Results flagged for a closer look

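Of the genes called between the controls, 8 had a difference between the controls that was not the same as in the arms with KB-R7934, by limma's test of the difference of the differences (adjusted p under 0.05 over all clusters). Ptgds stood at -2.32 between the controls and -1.0 with KB-R7934 (adjusted p = 0.045), lower in the stretch experiment in both. The other 7 were higher in static and not higher in the KB-R7934 arm. Atf5 stood at 1.06 and -0.25 (adjusted p = 0.038), Gtpbp2 at 1.04 and -0.01 (adjusted p = 0.038), Hmgn2 at 0.66 and -0.12 (adjusted p = 0.0438) and Slc3a2 at 0.81 and -0.68 (adjusted p = 0.0488). Armcx6 stood at 0.69 and -0.39 (adjusted p = 0.038), Nfxl1 at 0.42 and -0.5 (adjusted p = 0.038) and Rnf227 at 0.84 and -0.71 (adjusted p = 0.045). In the stretch against 8 Hz arm without inhibitor, Slc3a2 also had the opposite sign (-0.79), and Hmgn2 the same sign (0.36), and no gene differed from the controls by this test. All 8 also passed with experiment and replicate number together as a random or a fixed block (adjusted p up to 0.0202 and 0.0481). Trigger and inhibitor differ together between these arms, and their parts cannot be told apart.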

How the results depend on the processing

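The 501 called genes became 446 with each array centred on its median, 487 after another quantile normalisation, 488 with the mean of all clusters of a gene, 659 with limma's trend and robust options, 564 with an ordinary ANOVA, 688 without the dimmest 25% of clusters, and 939 when only clusters with exactly 1 symbol were adjusted together. Asking for 2-fold as well left 159. The fit of the 6 control arrays alone, which has fewer residual degrees of freedom, called 42, of which 41 were among the 501. A Student's t-test on these 6 arrays called 0 after adjustment and 2339 at an unadjusted p under 0.05. The study names this test for 2 groups in general, and a two-way ANOVA with Benjamini-Hochberg correction for its arrays. Leaving out 1 array gave 142 to 665 genes, and 3872 to 5509 clusters at the looser threshold (unadjusted p, 1.2-fold) against 4979.

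The controls share replicate numbers, but same-numbered arrays of the 2 controls did not deviate together (r = -0.023, 0.0393 and -0.0167), so the numbers do not pair them. With the replicate number alone as a fixed block the count was 585, sharing 468 genes with the 501. A random block of experiment and replicate number together gave 573, sharing 498. For the difference of arms, the block of experiment and replicate number together was added after seeing the data. The clusters whose difference between the controls differed from the KB-R7934 arms then rose from 21 to 90 (random) and 158 (fixed). Those against stretch minus 8 Hz stayed at 0.

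Of 126 called genes named here or shown, 62 kept the call without any 1 array and 32 in the fit of 6 arrays. With the fixed block of replicate number 122 kept it, and with the random block of experiment and replicate number 126. Signs turned for 2 genes that were not called: Nppa, at -0.13, ranged from -0.26 to 0.09 with 1 array left out (0.09 without static replicate 3), and Col1a1, at 0.02, from -0.17 to 0.15 (-0.17 without static replicate 1, -0.07 without 1 Hz replicate 1). The median changed sign for 5 of 47 groups, all with a reported median within 0.14 of 0.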
